A study of Sus scrofa domesticus with 2 samples.

Results

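Expression of the S100 calcium-binding protein genes was examined in cultured endothelial cells (ECs) from the aorta and the lung of the pig (Sus scrofa domesticus), profiled by droplet single-cell RNA sequencing. The rule named 8 genes, S100A2, S100A4, S100A5, S100A6, S100A10, S100A11, S100A13 and S100A16. Of these, 7 were named among the 22804 genes of the count matrices, and S100A16 was not analysed here. The 8 genes were selected on their levels in endothelial, collagen-high and low-mitochondrial cells of these same libraries. Their levels are therefore given as a description, without a test.

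S100 proteins are small proteins that pair up and, in most cases, bind calcium through EF-hand loops. Calcium binding opens a surface that grips target proteins such as annexins, so the family acts as a set of calcium-dependent adaptors at membranes and the cytoskeleton. S100A4 is also known as fibroblast-specific protein and is widely used as a mesenchymal marker. S100A6 (calcyclin) was first described as a transcript of growth-stimulated cells, and S100A10 (p11) binds annexin A2 and brings plasminogen activation to the endothelial surface.

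The measured genes all lie on the forward strand of chromosome 4 in the pig genome build Sscrofa11.1 (RefSeq annotation), within a stretch of 15 family genes at chr4:96007026-97272517. S100A2 (chr4:96073496-96076825), S100A4 (chr4:96088102-96091160), S100A5 (chr4:96093204-96096870) and S100A6 (chr4:96098264-96099686) stood close together, with only S100A3 between the first pair. S100A13 (chr4:96007280-96025120) lay at the start of the stretch and overlapped S100A1, which runs on the opposite strand. S100A11 (chr4:97233833-97239081) and S100A10 (chr4:97261752-97272517) were neighbours at the far end. The coding sequences of the 7 genes shared between 40.7% and 64.6% of their aligned bases over the 21 pairs, so none was a near-identical copy of another.

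The coding bases of the second EF-hand loop show what the members share and where S100A10 departs. Each run below covers 36 bases in RefSeq Sscrofa11.1, read 5′ to 3′ on the forward strand. Capitals mark the 4 codons whose residues can hold the calcium ion, the last of them at the end of the loop.
S100A2 (chr4:96076615-96076650): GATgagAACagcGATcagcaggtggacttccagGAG
S100A4 (chr4:96090914-96090949): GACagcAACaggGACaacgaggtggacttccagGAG
S100A5 (chr4:96096662-96096697): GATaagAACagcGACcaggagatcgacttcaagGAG
S100A6 (chr4:96099502-96099537): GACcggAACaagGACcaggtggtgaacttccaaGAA
S100A11 (chr4:97238812-97238847): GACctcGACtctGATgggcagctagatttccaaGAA
S100A13 (chr4:96024925-96024960): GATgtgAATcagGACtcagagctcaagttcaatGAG
S100A10 (chr4:97272139-97272174): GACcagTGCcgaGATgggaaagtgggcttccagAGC
In 6 of the 7 genes the last codon in capitals encodes glutamate. S100A10, placed by alignment to S100A11, has a cysteine codon as the second in capitals and a serine codon as the last, and its protein is known to work without calcium.

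The consecutive genes S100A4, S100A5 and S100A6 took different patterns in the cells described below, so the 200 bases before the first annotated start of each are shown, all on the forward strand of Sscrofa11.1. Capitals mark matches on either strand to TATAAN (the core of the TATA box) or to GGGCGG (a GC box).
S100A4 (chr4:96087902-96088101): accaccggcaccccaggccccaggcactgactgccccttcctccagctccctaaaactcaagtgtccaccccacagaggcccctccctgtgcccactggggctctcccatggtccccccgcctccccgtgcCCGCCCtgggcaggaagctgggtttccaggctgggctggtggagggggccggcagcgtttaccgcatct
S100A5 (chr4:96093004-96093203): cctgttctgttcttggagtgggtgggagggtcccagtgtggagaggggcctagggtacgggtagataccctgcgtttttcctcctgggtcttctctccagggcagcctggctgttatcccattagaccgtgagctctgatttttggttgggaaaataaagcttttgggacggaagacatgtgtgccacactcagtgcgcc
S100A6 (chr4:96098064-96098263): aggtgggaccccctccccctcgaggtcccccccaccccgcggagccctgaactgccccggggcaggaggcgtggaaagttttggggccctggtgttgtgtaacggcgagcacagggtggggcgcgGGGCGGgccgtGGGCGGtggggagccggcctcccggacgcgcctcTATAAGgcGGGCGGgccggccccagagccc
The S100A6 window held 3 GC boxes and a match to the core of the TATA box 30 bases before the start, the S100A4 window held 1 GC box, and the S100A5 window held neither. GC content was 55.0% in the S100A5 window, against 69.5% for S100A4 and 76.0% for S100A6. Among 19531 windows of this length before protein-coding genes, 13.5% held that core and 43.8% a GC box. Of the 7 members, 1 held the core and 4 held a GC box. TGANTCA (an AP-1 site, in 4.20% of windows) was found before S100A11 only, and CATTCC (a TEAD site, in 7.99%) before none. S100A4 has 4 annotated starts, S100A6 has 3 and S100A5 has 2, and only the window before the first was read. A match is a description of the letters and not of a bound site.

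There were 2 libraries, 1 of aorta ECs and 1 of lung ECs, each from cells freed by enzyme digestion and grown in the same endothelial culture medium. The number and age of animals behind each culture and the time in culture are not given in the labels, so culture, animal and library cannot be told apart, and intervals in the text cover counting error only. The study's filter kept cells with over 200 detected genes, below 5000 of them, and with mitochondrial UMIs under 30% (a UMI, or unique molecular identifier, counts 1 captured molecule). After it, 246 of 1185 aorta cells and 5683 of 5946 lung cells remained. The study gives a larger number of aorta cells, which this filter did not yield. The median was 4691 and 9453 UMIs per kept cell. The upper limit removed 709 deep aorta cells of 5000 genes or more (median 58476 UMIs), so these were also analysed, and are called deep. The study's methods took cells above this limit as doublets. Its larger aorta count exceeds the 246 cells kept here, and 955 cells passed without the upper limit. Deep cells may thus be among those the study used. Whether the deep cells include doublets was not tested. No cell barcode was shared by the kept cells of the libraries, and 5 were shared before filtering. No doublet caller was run.

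Clusters were formed without the S100 genes and without the marker genes, and then named from markers. Endothelial-like cells numbered 4931 in lung and 159 in aorta. PECAM1, an endothelial adhesion molecule, stood at 1597 CPM (UMIs per 1000000 in the class) in the lung class and 1091 CPM in the aorta class, so both cultures carried the labelled cell type, although VWF was at 0 in the latter. Collagen-high cells, with raised COL1A1 and COL1A2, numbered 333 in lung and 21 in aorta, and PDGFRB and CSPG4, which pericytes also use, were among their leading genes. A group of 66 aorta cells was called EndMT-like for genes of the endothelial-to-mesenchymal transition such as ACTA2, and S100A2 was among its leading genes. Its endothelial markers summed to only 61.6 CPM with 6 of 12 at 0, so the name rests on the mesenchymal side. Of these 66 cells, 55 had under 1% mitochondrial UMIs. A further 89 lung cells were immune-like, and 330 lung cells stayed unnamed, in a cluster of 290 shallow cells (median 2980.5 UMIs) that held 10 endothelial markers and one of 40 cells with 7 endothelial markers held and 4 EndMT markers raised. The immune-like cells also held 10 endothelial markers.

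S100A2 and S100A4 separated collagen-high from endothelial-like cells in both cultures. S100A2, an EF-hand protein with known binding to p53, was at 23.4 CPM (22.1 to 24.8) in lung endothelial-like cells and 517 CPM (494 to 540) in lung collagen-high cells, a ratio of 22.1 (20.5 to 23.7). S100A4, a regulator of non-muscle myosin and cell motility, rose from 22.1 CPM to 792 CPM between the same classes, a ratio of 35.8 (33.4 to 38.4). In aorta, S100A2 was at 53.4 CPM in the endothelial-like and 564 CPM in the collagen-high class (ratio 10.6, 7.74 to 14.5), and S100A4 at 59.4 and 451 CPM (ratio 7.59, 5.52 to 10.5). The class intervals cover counting error only. As these levels chose the genes, their separation is a description and not evidence of a difference. In lung, 2 of the 7 genes were at least 2-fold higher in collagen-high cells, where 7.28% of the 7983 genes compared were, and 1 was at least 2-fold lower, where 10.2% were. In aorta the count was 2 higher (17.5% of 8593 genes) and 0 lower (16.3%). Since these levels chose the genes, the shares are only background.

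**Figure D1:**
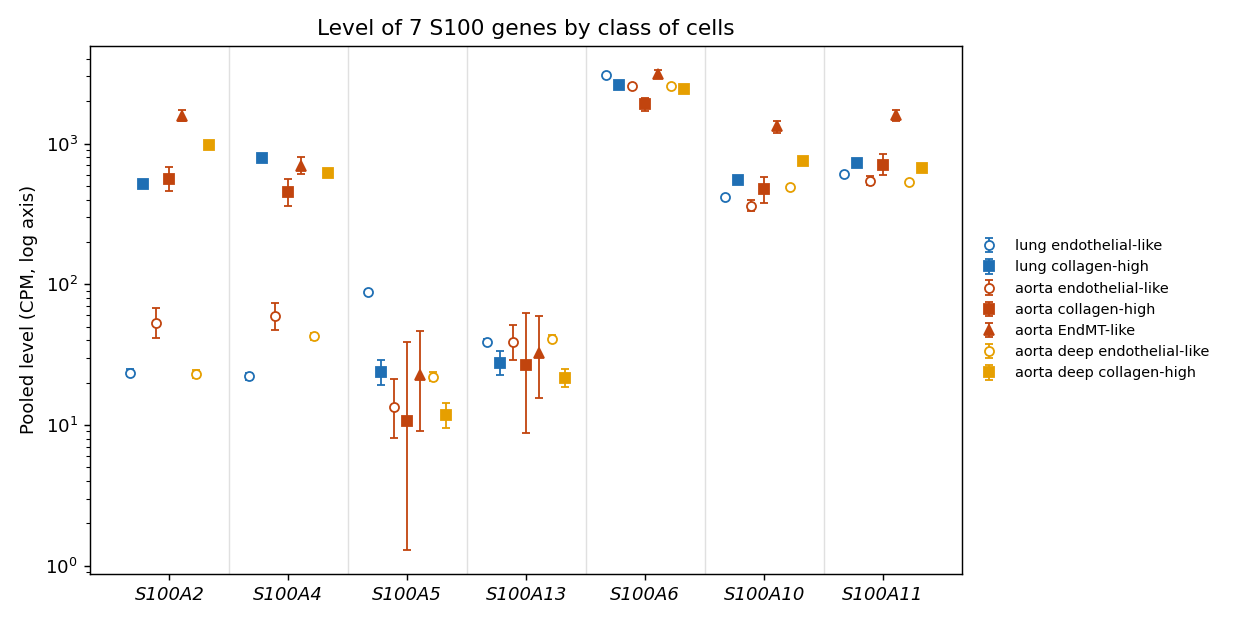
Pooled level of each S100 gene (CPM, log axis) in endothelial-like (open circles), collagen-high (squares) and EndMT-like (triangle) cells of lung (blue), aorta (red) and deep aorta cells (orange), with exact Poisson 95% intervals. S100A2 and S100A4 lie far apart between open and filled marks. Among the classes shown, S100A5 is highest in lung endothelial-like cells, and S100A6 is the highest gene in every class.

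The aorta values rested partly on single cells. Of the 71 S100A2 UMIs in aorta endothelial-like cells, 42 came from 1 cell, which also held 84 COL1A1 and 103 COL1A2 UMIs and only 2 PECAM1 UMIs. Of the 79 S100A4 UMIs, 50 came from another cell, with 14 PECAM1 and 1 COL1A1 UMIs. Without the highest cell of each gene the class stood at 22.1 CPM for both S100A2 and S100A4, next to the lung values of 23.4 and 22.1 CPM. The collagen-high ratios in aorta then became 25.5 (16.8 to 39.9) for S100A2 and 20.4 (13.2 to 32.3) for S100A4. The deep aorta cells, with far more UMIs, gave S100A2 levels of 23.1 CPM over 577 endothelial-like cells and 969 CPM over 126 collagen-high cells, a ratio of 42.03 (39.1 to 45.3). S100A4 stood at 42.6 and 614 CPM there, a ratio of 14.4 (13.6 to 15.3). A single deep cell again held 176 of the 794 endothelial-like S100A2 UMIs.

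Each of these transcripts was seen in most lung collagen-high cells, and cells with both were not counted. With every cell thinned to 5200 UMIs, 62.8% (57.2 to 68.2) of 312 lung collagen-high cells had an S100A2 UMI and 81.4% (76.6 to 85.6) an S100A4 UMI, against 8.6% and 9.3% of 4812 endothelial-like cells. Before thinning, the shares were 70.3% and 90.4% against 14.6% and 15.7%, at median depths of 10698 and 9579 UMIs. The lung clusters held no class free of both endothelial and collagen markers, so no background share from free RNA is given for the endothelial-like cells. For each COL1A1 UMI, lung collagen-high cells held 0.0967 S100A2 UMIs and endothelial-like cells 1.38, and for S100A4 the values were 0.148 and 1.31. COL1A2 kept 1.10 and 0.994 UMIs per COL1A1 UMI in the same classes. In aorta, S100A2 had 0.0956 and 0.634 UMIs per COL1A1 UMI in the 2 classes and S100A4 0.0765 and 0.705, while COL1A2 went from 0.983 to 1.62. In the aorta endothelial-like class, 1 cell held 84 of the 112 COL1A1, 103 of the 181 COL1A2 and 42 of the 71 S100A2 UMIs. Another held 50 of the 79 S100A4 UMIs, so the aorta endothelial-like values describe single cells more than the class.

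The lung collagen-high class held a pair of clusters that differed in their S100 levels. In the 91 cells led by WT1, IGFBP5 and COL3A1, S100A4 was at 1401 CPM and S100A2 at 799 CPM. In the 242 cells led by ACTG2, COL6A1 and ACTA2, S100A4 was at 578 CPM and S100A2 at 417 CPM, giving ratios of 2.42 (2.25 to 2.60) and 1.91 (1.75 to 2.10). S100A10 stood at 876 and 433 CPM, a ratio of 2.02 (1.85 to 2.21). S100A6 went slightly the other way, with 2408 CPM in the WT1-led and 2681 CPM in the ACTG2-led cells. At 5200 UMIs per cell, S100A2 was seen in 91.4% of WT1-led and 52.8% of ACTG2-led cells, and the median depths of 10605 and 10721.5 UMIs were alike.

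S100A5 took the opposite course. This gene, best known from olfactory neurons, was at 87.8 CPM (85.3 to 90.5) in lung endothelial-like and 23.7 CPM (19.1 to 29.2) in lung collagen-high cells, so 3.70-fold (3.00 to 4.61) lower in the latter. In deep aorta cells the endothelial-like class had 22.1 CPM and the collagen-high class 11.7 CPM, 1.88-fold (1.53 to 2.34) lower. The 2 UMIs in the 21 filtered aorta collagen-high cells gave a ratio of 0.793 with an interval from 0.0893 to 3.31, so no difference was detectable there. S100A13, which takes part in the release of FGF1 and IL1A by a leaderless route, leaned the same way. It was at 39.1 CPM in lung endothelial-like cells against 27.7 CPM in collagen-high ones, 1.41-fold (1.16 to 1.73) lower, and in deep aorta cells at 41.2 and 21.7 CPM, 1.90-fold (1.63 to 2.22) lower. Whether reads of S100A1, on the other strand, enter the S100A13 count was not stated, but S100A1 was at 11.9 CPM in lung collagen-high and 0.952 CPM in lung endothelial-like cells.

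**Figure D2:**
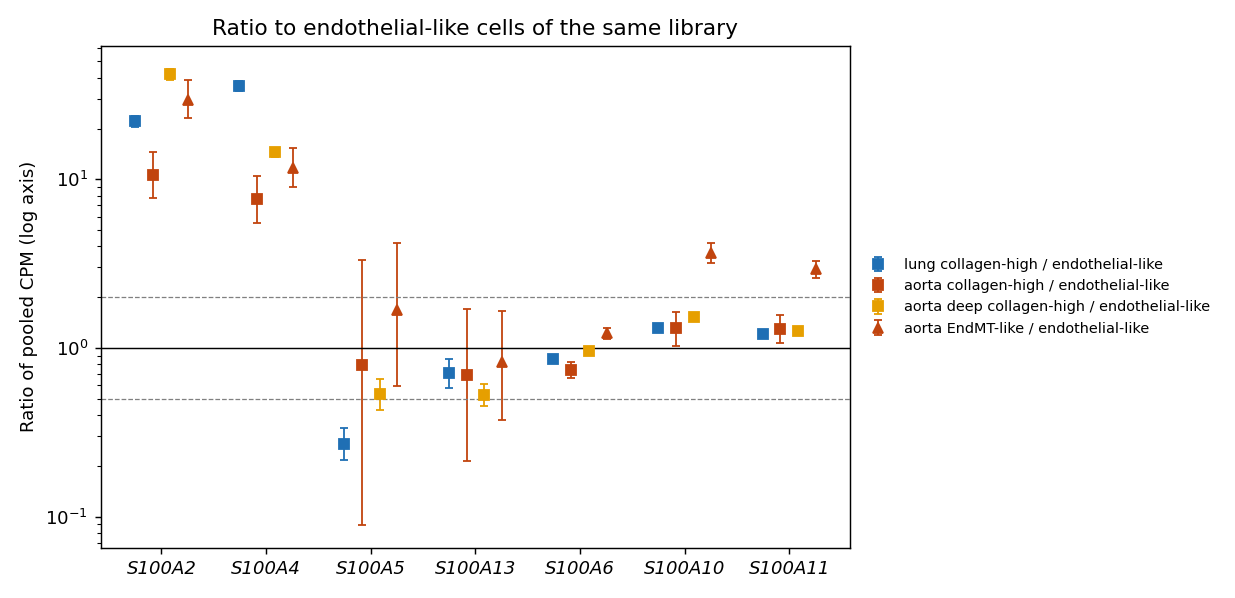
Ratio of pooled CPM (log axis) to the endothelial-like cells of the same library, for collagen-high cells of lung (blue), aorta (red) and deep aorta cells (orange) and for EndMT-like aorta cells (red triangles), with exact 95% intervals. The solid line marks a ratio of 1 and dashed lines mark 2-fold. S100A2 and S100A4 exceed 7-fold in all 4 comparisons, and S100A10 and S100A11 exceed 2-fold in EndMT-like cells only.

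S100A6, S100A10 and S100A11 were abundant in every class and varied little between collagen-high and endothelial-like cells. S100A6 stood at 3052 CPM in lung endothelial-like cells against 2609.6 CPM in collagen-high ones (1.17-fold lower, 1.15 to 1.19), and ranked as gene 53 and gene 64 of the detected genes by UMIs. In aorta it was at 2564 and 1895 CPM. It was found in 4931 of 4931 lung endothelial-like cells, with a median of 2852 CPM per cell and the central 80% of cells between 1752 and 4548 CPM. S100A10 was 1.31-fold (1.26 to 1.38) higher in lung collagen-high cells (548 against 417 CPM) and also 1.31-fold (1.03 to 1.64) higher in aorta (472 against 362 CPM). S100A11, a partner of annexin A1 found in many epithelia, was 1.21-fold (1.16 to 1.26) higher in lung (731 against 605 CPM) and 1.30-fold (1.07 to 1.57) higher in aorta (709 against 543 CPM).

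EndMT-like aorta cells had the highest S100A2 level of all classes. There S100A2 was at 1582 CPM (1445 to 1729), 29.6-fold (23.1 to 38.6) above aorta endothelial-like cells, and S100A4 at 697 CPM, 11.7-fold (9.03 to 15.4) above. S100A10 (1322 against 362 CPM, 3.66-fold, 3.20 to 4.18) and S100A11 (1592 against 543 CPM, 2.93-fold, 2.61 to 3.29) were raised as well, whereas S100A6 was 1.22-fold (1.14 to 1.31) higher. This gave 4 of 7 genes at least 2-fold higher, where 13.7% of 7880 genes were, and 0 lower, where 36.5% were. S100A2 was seen in 58 of the 66 cells and S100A4 in 47. In the 11 EndMT-like cells with 1% mitochondrial UMIs or more, S100A2 was at 713 CPM and S100A4 at 1503 CPM, with 35 of the 78 S100A4 UMIs in 1 cell. These cells also kept 1137 CPM of S100A10 and 1464 CPM of S100A11. Among cells under 1%, levels were also read without the highest cell of each gene. S100A11 was then at 1615 CPM in EndMT-like and 1330 CPM in endothelial-like cells, so the classes lay close. S100A10 was at 1345 and 702 CPM and S100A2 at 1533 and 47.4 CPM. The part of the mitochondrial share in the class ratios was not tested. Set against the deep aorta collagen-high class, EndMT-like cells held 1.63-fold (1.49 to 1.79) more S100A2, 1.77-fold (1.60 to 1.96) more S100A10 and 2.36-fold (2.15 to 2.59) more S100A11. S100A4 did not differ from the deep class beyond counting error (1.13-fold, 0.985 to 1.30). Against the 21 filtered collagen-high cells, S100A2 was 2.81-fold (2.27 to 3.50), S100A10 2.80-fold (2.22 to 3.57) and S100A11 2.25-fold (1.85 to 2.74) higher. S100A4 was 1.55-fold (1.20 to 2.01) higher there, with 29 of the 84 collagen-high UMIs in 1 cell.

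Cells with under 1% mitochondrial UMIs carried more S100A11 in both cultures and more S100A10 in aorta. They numbered 110 of the 246 kept aorta cells (median 3250.5 UMIs) and 39 of the 5683 lung cells (median 1093 UMIs). In aorta, S100A11 was at 1535 CPM in these and 509 CPM in the other cells (3.01-fold, 2.70 to 3.36), S100A10 at 1133 and 364 CPM (3.11-fold, 2.74 to 3.53), and S100A2 at 1141 and 142 CPM (8.05-fold, 6.81 to 9.55). With S100A4 (2.08-fold, 1.68 to 2.57), 4 of 7 genes were at least 2-fold higher, where 12.2% of 7920 genes were, and 0 lower, where 36.5% were. Of the 141 S100A4 UMIs, 137 lay in EndMT-like cells, and as a mean over single cells its log2 ratio was 0.41 in place of 1.06. In lung, 3 of 7 were higher (25.7% of 8304 genes) and 0 lower (9.5%). These were S100A11 (2.23-fold, 1.80 to 2.72, and a log2 ratio of 0.54 in place of 1.16 with the split at 2%), S100A2 (4.75-fold, 2.86 to 7.43) and S100A4 (3.98-fold, 2.46 to 6.09), on 96, 19 and 21 UMIs. With the split at 2%, S100A4 went to a log2 ratio of 1.10 from 1.99. S100A10 was 1.78-fold (1.33 to 2.33) higher, and went to a log2 ratio of 0.21 from 0.83 with that split. Of these 39 cells, 37 lay in the unnamed cluster of 40 cells, in which ACTA2 was a leading gene. Summed EndMT markers stood at 10107 CPM under 1% and 7479 CPM in the other lung cells, endothelial markers at 1474 and 2746 CPM (KDR and VWF at 0 in the former), and their part in the result was not tested.

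The low-mitochondrial aorta cells were a mixture, 54 endothelial-like, 55 EndMT-like and 1 collagen-high, so the same split was read within the endothelial-like class. Of the 54, 52 lay in a cluster that held 6 endothelial markers, with 0 raised and 2 collagen-high markers raised. Without the upper limit on detected genes, only 4 cells under 1% were in the endothelial-like class and 53 were unnamed. S100A11 was at 1399 CPM under 1% and 436 CPM at 1% or more (3.21-fold, 2.72 to 3.78), S100A10 at 740 and 314 CPM (2.36-fold, 1.89 to 2.92), and S100A6 at 3820 and 2406 CPM (1.59-fold, 1.45 to 1.74). S100A2 did not differ beyond counting error there (1.62-fold, 0.791 to 3.04). Of all 8130 genes compared, 14.6% were at least 2-fold higher under 1% and 23.7% lower. S100A4 had only 4 UMIs under 1% (26.9 against 63.5 CPM, interval of the ratio 0.113 to 1.13). Median depth moved with this split (2458.5 against 8898 UMIs), as did the summed endothelial markers (679 against 2556 CPM, with KDR, TEK and VWF at 0) and EndMT markers (9879 against 7423 CPM). Their part in the result was not tested. Against the deep endothelial-like cells the ratios were smaller, 2.61 (2.26 to 2.99) for S100A11 and 1.51 (1.24 to 1.82) for S100A10.

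**Figure D3:**
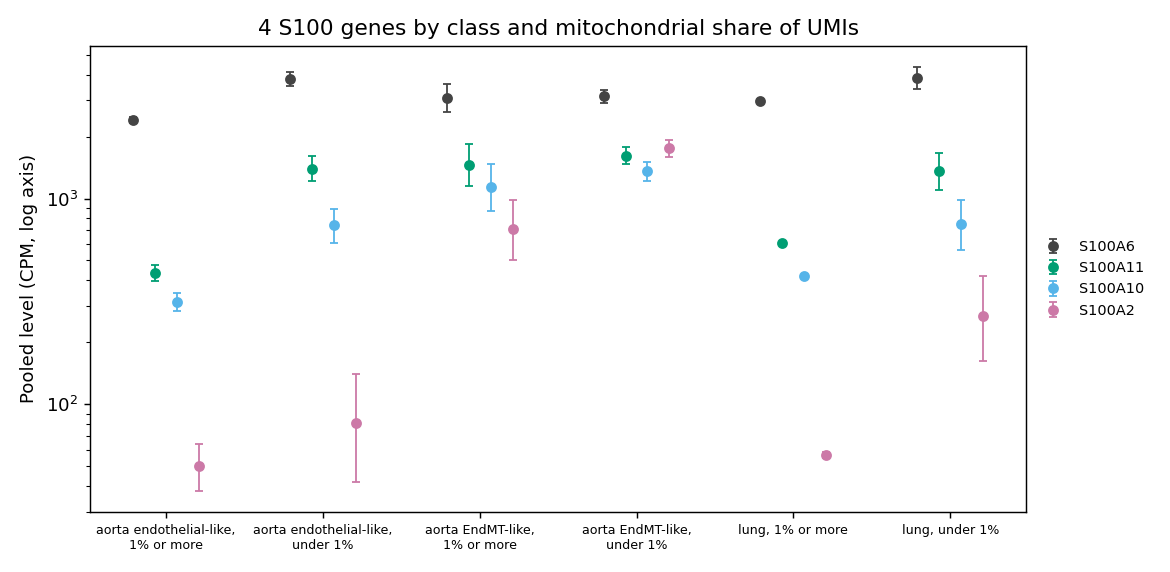
Pooled level (CPM, log axis) of S100A6, S100A11, S100A10 and S100A2, with exact Poisson 95% intervals, in cells with under 1% or with 1% or more mitochondrial UMIs. Within aorta endothelial-like cells S100A11 goes from 436 to 1399 CPM and S100A10 from 314 to 740 CPM, while S100A2 intervals overlap. In EndMT-like cells S100A10 and S100A11 are high on both sides of the split.

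Between the cultures, S100A5 was lower in aorta than in lung endothelial-like cells. It stood at 13.5 CPM (8.02 to 21.4) in aorta and 87.8 CPM in lung, 6.49-fold (4.10 to 10.96) lower in aorta. In the deep aorta cells it was 3.97-fold (3.68 to 4.30) lower, and among cells called G1 it was 3.30-fold (2.97 to 3.67) lower. At 5200 UMIs per cell, 30.4% of lung endothelial-like cells had an S100A5 UMI, against 8.33% of 84 filtered and 9.53% of 577 deep aorta cells. Across the 7 lung endothelial-like clusters it ran from 70.4 CPM in cells led by CXCL10, RSAD2 and CCL5 to 93.8 CPM. All 7 lay above every aorta cluster, of which the highest was at 25.9 CPM. S100A2 and S100A4 were 2.28-fold and 2.68-fold higher in aorta, so that 2 of 7 genes were at least 2-fold higher (7.30% of 7964 genes) and 1 lower (4.24%). Without the single highest aorta cell these ratios were 0.944 (0.629 to 1.36) and 0.997 (0.665 to 1.44), whereas that of S100A5 was 0.130 (0.0729 to 0.215). In the deep aorta cells S100A4 was 1.92-fold (1.78 to 2.08) higher than in lung (42.6 against 22.1 CPM, and 35.4 CPM without its highest cell), and 2.15-fold (1.94 to 2.38) higher among cells called G1. S100A2 did not differ beyond counting error in the deep cells (0.984, 0.899 to 1.08). S100A6 (0.840), S100A10 (0.867), S100A11 (0.898) and S100A13 (1.00) had ratios close to 1. The filtered aorta class joined a cluster of 87 cells at a median of 10736 UMIs and one of 72 cells at 2379.5 UMIs, of which 52 had under 1% mitochondrial UMIs.

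**Figure D4:**
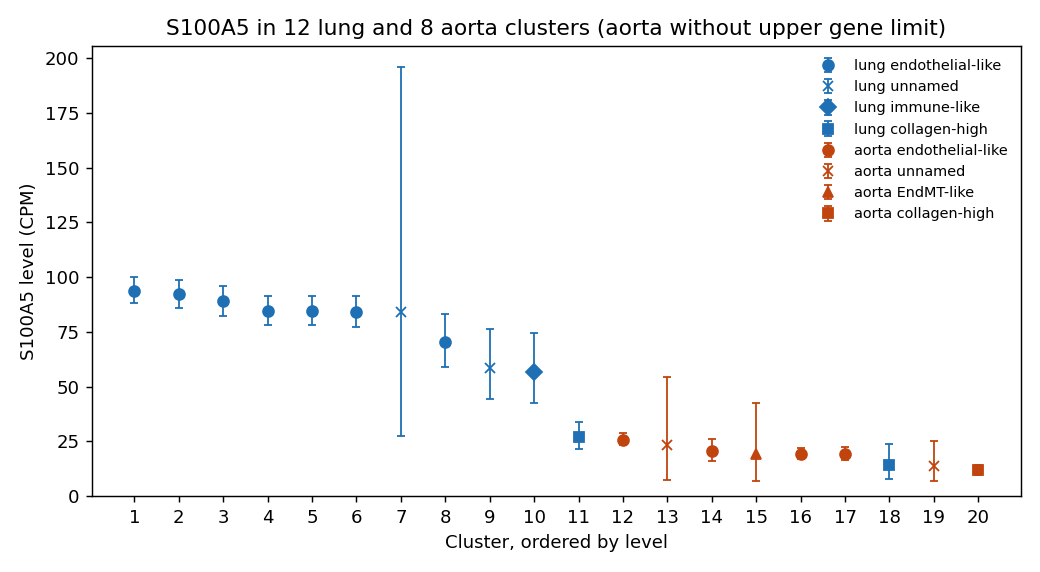
S100A5 level (CPM) with exact Poisson 95% intervals in 12 lung clusters (blue) and 8 aorta clusters formed without the upper gene limit (red), ordered by level. Lung endothelial-like clusters lie between 70.4 and 93.8 CPM, and no aorta cluster exceeds 25.9 CPM.

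Most S100 genes were lower in cells called as cycling. In lung endothelial-like cells S100A6 was at 3517 CPM in G1, 2709 CPM in S and 2673 CPM in G2M, so 1.32-fold (1.30 to 1.33) lower in G2M than in G1. S100A4 was 1.59-fold (1.39 to 1.83) lower, S100A2 1.53-fold (1.33 to 1.76), S100A13 1.33-fold (1.20 to 1.47), S100A10 1.27-fold (1.23 to 1.31) and S100A11 1.21-fold (1.18 to 1.24) lower. S100A5 was level at 87.3, 88.9 and 87.8 CPM in G1, S and G2M. None of the 7 reached 2-fold, where 4.42% of 7618 genes were that much higher and 0.354% that much lower. In deep aorta endothelial-like cells most differences were larger, with S100A6 1.74-fold (1.71 to 1.77), S100A13 1.90-fold (1.65 to 2.20), S100A2 2.96-fold (2.40 to 3.69) and S100A4 3.06-fold (2.61 to 3.62) lower in G2M. S100A5, level in lung, was 1.40-fold (1.17 to 1.68) lower there. The differences of S100A11 (1.21-fold lower, 1.17 to 1.26) and S100A10 (1.18-fold lower, 1.14 to 1.23) were not larger than in lung. A single G1 cell held 176 of the 589 S100A2 UMIs and another 248 of the 1018 S100A4 UMIs there.

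S100A6 was highest in a cluster led by SLPI and CFD in lung, and a cluster led by these genes was found in aorta too. In lung, the 766 cells led by MGP, SLPI, CRYAB and CFD had 4358 CPM of S100A6, the top of all 16 clusters, against 2697 CPM in the 630 cells led by FAM83D, UBE2C and TOP2A (1.62-fold, 1.59 to 1.64). The same lung cells had the highest levels among the 7 lung endothelial-like clusters of S100A4 (44.4 CPM), S100A11 (758 CPM) and S100A13 (54.9 CPM). In aorta, the 244 cells led by CXCL10, CCL5, SLPI and CFD had 3609 CPM of S100A6, against 1941 CPM in the 165 cells led by FBXO5 and HIST1H1D (1.86-fold, 1.83 to 1.89). S100A4 was at 71.6 and 16.1 CPM and S100A13 at 60.6 and 29.5 CPM in those aorta clusters. The clusters set against them were cycling ones, with 7 G2M phase markers raised in lung and 6 S phase markers raised in aorta. The part of cycle phase in these ratios was not tested. Over the 7 lung endothelial-like clusters the median S100A6 level was 2766 CPM.

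**Figure D5:**
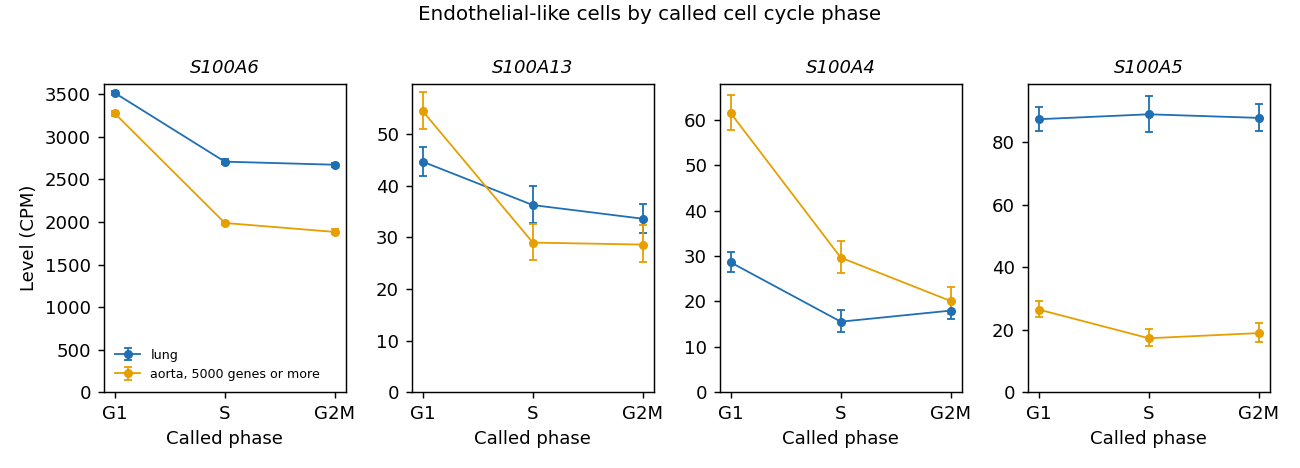
Level (CPM, linear axes from 0) of S100A6, S100A13, S100A4 and S100A5 in endothelial-like cells by called cell cycle phase, in lung (blue) and deep aorta cells (orange), with exact Poisson 95% intervals. S100A6 and S100A13 are highest in G1 in both cultures, and lung S100A5 is flat across phases.

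Across the 16 clusters of both libraries some members varied together. The log2 levels of S100A2 and S100A4 had r = 0.947 and those of S100A10 and S100A11 r = 0.942, and S100A2 and S100A4 had r from 0.62 to 0.74 with S100A10 and S100A11. S100A2 and S100A5 had r = -0.671, and no member had r above 0.377 with S100A5. The clusters share libraries and differ in depth, so these are descriptions. Among 5043 genes, those most like S100A2 were LHFPL6 (r = 0.973), PRRX2 (0.971) and FOXS1 (0.967), and those most like S100A4 were CREB3L1 (0.959), PAPSS2 (0.953) and WNT5B (0.95). SDHA was most like S100A5 (0.923), RPS27L most like S100A6 (0.912) and MAP1LC3A most like S100A13 (0.921). GLIPR2 (0.933) and REXO2 (0.926) led for S100A10, and COX7A2L (0.909) and REXO2 (0.907) for S100A11.

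Other genes of the calcium system were counted by the same 2-fold rule. Of 14 S100 partners and targets above the minimum level, 0 were at least 2-fold higher and 1 lower in lung collagen-high cells. Of all genes compared there, 7.28% were higher and 10.2% lower, so these counts lay near the shares of all genes. ANXA2, the annexin partner of S100A10, stood at 2826 CPM in the endothelial-like and 2591 CPM in the collagen-high class of lung. Of 16 other EF-hand genes only SPARC, a secreted matrix protein, was higher there (683 against 172 CPM, 3.97-fold, 3.80 to 4.15). None was lower, and these counts too lay near the shares of all genes. In aorta collagen-high cells 4 of 14 partners were higher and 2 lower, and 2 of 16 EF-hand genes, RCN1 and SPARC, were higher and 4 lower, against 17.5% and 16.3% of all genes. In EndMT-like aorta cells 5 of 14 partners were higher and 3 lower, against 13.7% and 36.5% of all genes. The higher ones at 50 CPM or more were ANXA1 (817 against 246 CPM), ANXA2 (3040.4 against 1437 CPM), ANXA5 (1737 against 686 CPM) and CACYBP, a binding partner of S100A6 (366 against 135 CPM). AHNAK, the giant scaffold bound by S100A10 with ANXA2, was lower (6.48 against 71.4 CPM, on 2 UMIs in the former). Of 16 other EF-hand genes, 2 were higher and 4 lower in EndMT-like cells, against the same shares. Of the 5 listed receptors for S100 proteins, 3 were measured and 2 were above 10 CPM in a class. Of these 2, 0 were higher in lung collagen-high, aorta collagen-high or EndMT-like cells. In that order 1, 1 and 2 were lower, where 10.2%, 16.3% and 36.5% of all genes were. The levels of the unmeasured ones are not known.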

How the data were processed

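The authors made droplet libraries (10x Genomics 3′ kit, v3 chemistry) and deposited UMI counts per gene and cell, which the submitters' notes credit to Cell Ranger 3.0.2 with Ensembl Sscrofa11.1. From these deposited counts, cells were filtered, log-normalized and clustered per library in Seurat 5.3.0 (2000 variable genes less marker and S100 genes, 20 components, resolution 1). A marker was raised at 20 CPM and 2-fold above the rest, and held at 0.25 of its highest cluster. A name needed 3 raised (for endothelial-like, held) markers, or both COL1A1 and COL1A2, endothelial-like and EndMT-like excluded each other, and a cluster far shallower than its library with no own marker among its top 10 genes stayed unnamed. These thresholds were set after marker levels were seen. Levels are pooled CPM with exact Poisson 95% intervals, shares have Clopper-Pearson intervals, and ratios exact conditional ones. Genes at 10 CPM or more in either class were compared. With 1 library per group no test was run. Members and lists were chosen with earlier results of these data known. The named genes were all members, list genes at 50 CPM or more, and for likeness the 3 genes with the highest r. The study's stated step against doublets was the upper gene limit, which the deep cells do not pass, and no doublet caller was run here. The study's cell count for aorta lies above what the stated filter left. Whether counting used strand is not given in the sources used here. Alternatives varied the gene and mitochondrial limits, clustering settings, thinning, the fold, and how levels were pooled. Members were taken by their deposited names. For S100A2, a gene name reference pairs the name with a different Ensembl identifier from the deposited one. Its counts were joined to the RefSeq gene by name only. Sequences are from RefSeq Sscrofa11.1.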

Additional observations from a re-analysis of the deposited data

How the results depend on the processing

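With 1 library per culture, no replicate could be left out, and every value describes these libraries. No paired analysis was possible because no result comes from a test. Of 102 alternative counts of genes past the fold, 97 were within 1.5 times the first count. For aorta against lung endothelial-like cells, 3 genes became 1 without the upper limit on detected genes, 1 at a fold of 3, and 1 without the highest aorta cell for each gene, an alternative chosen after seeing the data. A fold of 1.5 gave 5 genes in place of 3 for lung cells under 1% mitochondrial and 2 in place of 0 for G2M against G1. The log2 ratio of S100A2 between aorta and lung endothelial-like cells was 1.19 and turned to -0.0495 without the upper limit, -0.32 with classes from marker UMIs, and -0.0838 without the highest cell, which also turned S100A4 from 1.42 to -0.0043. Other called log2 ratios kept their sign under every alternative run. For lung collagen-high cells the ratio ranged from 4.43 to 4.57 for S100A2 and from 5.14 to 5.23 for S100A4. S100A11 fell below 2-fold in EndMT-like cells as a mean over single cells (0.89 in place of 1.55) and in lung cells under 1% mitochondrial with the split at 2% (0.54 in place of 1.16). For S100A5 between cultures it ranged from -3.36 to -2.02. Thinning left fewer than 10 lung cells under 1% mitochondrial, so that alternative was not run. Leaving out cells under 1% mitochondrial and keeping G1 cells alone were also chosen after seeing the data, and left each count within 1.5 times.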

Other observations

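Among the S100 genes outside the rule, S100A12 was seen in the immune-like lung cells. These 89 cells, led by LYZ, GPNMB and FCER1G, held 97.2 CPM (78.1 to 120) of S100A12, a granulocyte and macrophage alarmin. S100A9 was at 26.2 CPM and S100A8 at 22.9 CPM in them. S100A12 was seen in 12 of the 89 cells, and 53 of its 89 UMIs lay in 1 cell, against 4 of 4931 lung endothelial-like cells. The immune-like cells also kept 1135 CPM of PECAM1, and with mitochondrial UMIs under 10% only 13 cells formed an immune-like cluster, so the class is mixed. Their S100A6 level, 2151 CPM, was the lowest of the 12 lung clusters.

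Within aorta endothelial-like cells, 7 of 16 other EF-hand genes were at least 2-fold higher under 1% mitochondrial UMIs and 3 lower, where 14.6% and 23.7% of all genes were. The higher ones included CALM2 (1069 against 509 CPM), MYL6 (1506 against 668 CPM), SRI (155 against 75.3 CPM) and CETN2 (108 against 38.9 CPM). The lower ones were CALU (108 against 408 CPM), SDF4 (67.2 against 135 CPM) and SPARC (47.1 against 377 CPM), while RCN1 (148 against 204 CPM) and RCN2 (87.4 against 138 CPM) did not pass 2-fold.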
